A study of Homo sapiens with 5 samples.

Results

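The genes described here are the 256 protein-coding genes on chromosomes 1 to 18 and 20 to 22 whose symbol starts with ZNF, out of 20037 protein-coding genes placed on chromosomes 1 to 22, X and Y in RefSeq (GRCh38.p14). Symbol and position define the set, not peak values, and each was described by the share of its gene body that lay under peaks of trimethylated histone H3 lysine 9 (H3K9me3). The peaks come from chromatin immunoprecipitation and sequencing (ChIP-seq) of HEK293T cells, which derive from human embryonic kidney. One library was labelled KD, a knockdown of KCNQ1OT1 (written KCNQ1OT1_K in the design), and the other was labelled EV, which the labels do not spell out and which is treated here as the control of KD. KCNQ1OT1 is a long non-coding RNA of an imprinted domain on chromosome 11. Both libraries were made with the same H3K9me3 antibody. How the knockdown was done, and whether the cells were a clone or a pool, is not stated in the labels. The labels also list a WT library and inputs of WT and EV, and no list used here carries those names. A further peak list carries no genotype in its name, so it was assigned to no group, and it is called the unassigned list below. It may come from the WT library, which the files used here do not state. Its values stand beside the others and enter no comparison between conditions.

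With 1 library in each group, the KD and EV differences cannot be set against the spread between replicates and carry no test. Intervals are exact Clopper-Pearson 95% intervals and cover counting error over peaks or genes only. The lists hold peaks and no reads, so the depth is unknown, and neither the loss of KCNQ1OT1 nor the identity of the cells could be checked from them. The KD list held 12650 peaks over 20.6 Mb of chromosomes 1 to 22, X and Y, the EV list 24665 peaks over 50.5 Mb, and the unassigned list 14362 peaks over 29.8 Mb. The EV list was thus the longer one, and the values that change when EV is limited to its strongest peaks, as many as KD holds, are given beside the results. In a bulk library a smaller share of marked cells and less of the mark per cell cannot be told apart.

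Most ZNF genes encode transcription factors with tandem C2H2 zinc fingers that bind DNA, and many also carry a KRAB domain. A KRAB domain recruits TRIM28, which brings the methyltransferase SETDB1, and SETDB1 places H3K9me3 on the bound site, often a transposable element. Many of these genes arose by tandem duplication and sit in clusters, and in human cells their own gene bodies are known as targets of the same mark. Chromosome 19 holds the largest clusters, and smaller ones lie on other autosomes.

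By the criterion used below, H3K9me3 peaks filled a part of the gene body in KD for a share of these ZNF genes close to that of protein-coding genes at large, and in EV for a larger share. Peaks covered at least 10% of the gene body of 4 of the 256 genes in KD (1.56%, interval 0.427 to 3.95) and of 26 in EV (10.2%, interval 6.74 to 14.5). Among all 20037 protein-coding genes the same criterion was met by 1.55% in KD and 2.75% in EV. In the unassigned list 14 of the genes met it (5.47%, interval 3.02 to 9.01), against 0.774% of all protein-coding genes. The median gene body was 24044 bp for the ZNF genes and 24115 bp for all protein-coding genes, and the median covered share was 0% for both in every list.

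Counting any overlap of at least 1 bp, 46 of the 256 genes had a peak in KD (17.97%) and 97 in EV (37.9%), where the shares over all protein-coding genes were 11.5% and 24.5%. In the unassigned list 61 had one (23.8%), against 7.26% of all protein-coding genes. A total of 24 genes had a peak in all 3 lists and 137 had none in any. Another 16 had a peak in the unassigned list and in neither KD nor EV, beside 2.04% of all protein-coding genes. The covered share was lower in KD for 95 genes, beside 22.9% of all protein-coding genes, and higher in KD for 8, beside 3.16% of all. The other 153 had no peak in KD or EV.

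Over the merged gene bodies, 13483564 bp in all, peaks covered 0.562% in KD and 2.55% in EV, a KD/EV ratio of covered length of 0.220. When the EV list was cut to its strongest 12650 peaks, 4 of the genes met the 10% criterion in KD and 11 in EV, where all protein-coding genes had 1.55% in each. The ratio of covered length was then 0.459 for the ZNF genes and 0.560 for the other protein-coding genes of the same chromosomes, of which 254 met the criterion in KD and 226 in EV. The other 17419 protein-coding genes of the same chromosomes were covered to 0.188% in KD and 0.609% in EV, a ratio of 0.308. In the unassigned list the ZNF genes were covered to 0.998% and the other genes to 0.143%. The 250 ZNF genes of chromosome 19 had 0.912% in KD and 6.91% in EV, a ratio of 0.132, and 5 of them met the 10% criterion in KD against 62 in EV. Each of these sets thus had a smaller covered length in KD, and the ratio for the ZNF genes outside chromosome 19 lay between those of the other protein-coding genes and of the chromosome 19 genes.

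The covered bases were held by few genes. In KD 6 genes held at least 50% of the covered bases of all 256, and in EV 10 genes did. The 4 genes ZNF605, ZNF268, ZNF678 and ZNF721 held 29.4% of the KD bases and 31.3% of the EV bases. These 4 had been singled out from earlier results of the same lists, so their values are a description.

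ZNF605 (chr12:132918306-132956306, minus strand) had the highest covered share in EV. Its body was covered to 10.1% in KD, by 4 peaks, and to 48.5% in EV, by 5 peaks, and to 5.42% in the unassigned list. All 4 KD peaks overlapped an EV peak, but the widest KD peak measured 1566 bp and the widest EV peak 6869 bp. That KD peak lay wholly inside that EV peak, with a −log10 p of 11.2 for the KD peak and 11.5 for the EV peak, as the authors' caller gave them. ZNF605 was thus marked in both lists, with shorter peaks in KD.

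ZNF268 (chr12:133181495-133214832, plus strand), at the other end of the same cluster, was covered to 1.70% in KD and 41.1% in EV. KD had 1 peak there, of 566 bp, and EV had 6 peaks. The KD peak overlapped none of the EV peaks inside the gene. The widest EV peak that touched any of the 256 genes began in the last 1338 bp of ZNF268 and ran over 26473 bp to chr12:133239967, across the neighbouring homeobox gene ANHX. KD had 5 separate peaks within those 26473 bp, which covered 7269 of them. The unassigned list covered 16.3% of ZNF268, with 5 peaks.

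ZNF678 (chr1:227563556-227679669, plus strand) lies outside the clusters. It was covered to 11.1% in KD, by 11 peaks, and to 44.5% in EV, by 19 peaks, and to 8.03% in the unassigned list, by 8 peaks. Each of the 11 KD peaks overlapped an EV peak. The median peak width there was 791 bp in KD and 1761 bp in EV. The mark in ZNF678 thus formed a row of peaks along the gene in both lists, fewer and narrower in KD.

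ZNF721 (chr4:439988-499156) had 8.47% in KD and 41.2% in EV, from 4 and 6 peaks, and 7.86% in the unassigned list. Its 4 KD peaks all overlapped EV peaks. The widest EV peak in it, at chr4:450609-460094, measured 9486 bp, of which KD covered 806 bp.

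Promoters were touched by KD and EV peaks at shares close to those of protein-coding genes at large. The window of 250 bases before to 50 after the start was available in RefSeq for 209 of the 256 genes. A peak touched it in 3 of them in KD (1.44%) and 4 in EV (1.91%), where the shares over 15843 protein-coding genes were 1.23% and 1.73%. The 3 in KD were ZNF141, ZNF354C and ZNF595, and the 4 in EV were ZNF141, ZNF454, ZNF679 and ZNF722. In the unassigned list the 3 touched were ZNF273, ZNF454 and ZNF595, beside 0.353% of all. Most genes with a covered body had no peak at the start, but the share with one was above that of all protein-coding genes. Of the 23 members at 10% in EV that have a window, 3 had it touched in KD (13.04%) and 2 in EV (8.70%). The shares over all protein-coding genes were 1.23% and 1.73%. These 23 were taken for their cover in EV.

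The following windows (RefSeq, GRCh38.p14) are shown because they contrast a promoter free of peaks beside a covered body with a promoter under a peak. Each is written 5′ to 3′ in the direction of transcription, with CpG dinucleotides, the sites of DNA methylation, in capitals. The ZNF605 window (chr12:132956257-132956556, minus strand) had 24 CpGs, and the nearest peak was 882 bp away in KD and 725 bp away in EV. The ZNF268 window (chr12:133181245-133181544, plus strand) had 20 CpGs, with the nearest peak at 3400 bp in KD and 1370 bp in EV. The ZNF141 window (chr4:337564-337863, plus strand), with 16 CpGs, lay wholly under a KD peak and an EV peak. The ZNF454 window (chr5:178940948-178941247, plus strand), with 27 CpGs, was 9974 bp from the nearest KD peak and lay wholly under an EV peak and a peak of the unassigned list.
ZNF605: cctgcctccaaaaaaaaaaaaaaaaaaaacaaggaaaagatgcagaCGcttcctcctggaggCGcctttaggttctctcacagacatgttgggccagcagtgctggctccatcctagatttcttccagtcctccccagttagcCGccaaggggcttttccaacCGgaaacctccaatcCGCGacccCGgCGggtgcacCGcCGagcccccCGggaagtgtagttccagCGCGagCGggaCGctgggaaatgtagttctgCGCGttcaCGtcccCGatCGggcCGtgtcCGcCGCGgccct
ZNF268: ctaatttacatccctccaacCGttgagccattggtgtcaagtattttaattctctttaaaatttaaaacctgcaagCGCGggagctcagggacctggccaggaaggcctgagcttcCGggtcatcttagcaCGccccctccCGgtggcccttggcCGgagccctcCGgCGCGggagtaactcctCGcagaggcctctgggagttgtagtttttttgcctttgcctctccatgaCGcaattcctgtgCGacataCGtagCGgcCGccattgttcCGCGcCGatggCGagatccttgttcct
ZNF141: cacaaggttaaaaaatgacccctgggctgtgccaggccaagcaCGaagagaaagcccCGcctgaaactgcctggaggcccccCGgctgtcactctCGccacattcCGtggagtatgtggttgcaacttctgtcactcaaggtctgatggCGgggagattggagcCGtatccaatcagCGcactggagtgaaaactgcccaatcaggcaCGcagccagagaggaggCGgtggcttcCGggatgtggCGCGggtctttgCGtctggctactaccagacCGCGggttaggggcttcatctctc
ZNF454: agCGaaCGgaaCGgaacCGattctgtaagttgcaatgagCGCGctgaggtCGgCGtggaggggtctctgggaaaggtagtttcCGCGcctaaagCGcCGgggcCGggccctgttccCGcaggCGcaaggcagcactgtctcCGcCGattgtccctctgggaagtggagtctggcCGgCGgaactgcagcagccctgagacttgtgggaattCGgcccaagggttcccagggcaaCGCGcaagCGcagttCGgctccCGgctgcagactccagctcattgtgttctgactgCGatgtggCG

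The 4 windows shown were thus rich in CpG, covered or not. The ZNF678 window (chr1:227563306-227563605, plus strand), not shown, had 9 CpGs and no peak over it in any list. CG, which reads the same on both strands, occurred at least 10 times in 187 of the 209 windows (89.5%), against 72.9% of the windows of all protein-coding genes, with a median of 24 and 22 per window.

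Among the 26 genes at 10% in EV, the KD share was below 0.5 of the EV share in 25, and 8 had no KD peak. Among all 552 protein-coding genes at 10% in EV these outcomes had shares of 59.4% and 34.4%. The median KD/EV ratio of the 26 was 0.158 (quartiles 0.00 and 0.283), against 0.392 (quartiles 0.00 and 0.960) for the other 376 such genes of the same chromosomes. These genes were taken for being high in EV, so a lower value in KD is favoured by the choice in both sets. The sets also differ in gene length, with a median body of 27921.5 bp for the 26 ZNF genes and 5677.5 bp for the other 376, and a short gene can be filled by 1 peak. The part of gene length in this contrast was not tested. With the shortened EV list, 8 of 11 members had a KD share below 0.5 of the EV share, against 40.3% of the other genes at 10%.

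ZNF7 was the exception among the 26. It had 22.1% in KD and 29.8% in EV, a ratio of 0.739, and was the highest of all 256 genes in KD. Its widest KD peak measured 3994 bp and was the widest KD peak in any of the 256 genes. ZNF195, ZNF595, ZNF717, ZNF594 and ZNF736 had the next ratios, between 0.298 and 0.451. ZNF717 was covered to 10.5% in KD and 27.7% in EV. It is known for sequence shared with close copies elsewhere, so its value is uncertain, and reads from other near-identical ZNF copies may likewise be split between genes.

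The remaining genes that reached 10% in KD were thus ZNF605, ZNF678 and ZNF717, and all 4 also reached it in EV. ZNF354A, also known as KID-1 and described in rat kidney as a KRAB repressor, had 7.60% in KD and 35.5% in EV, with no peak in the unassigned list. ZNF354B, its neighbour, had 5.84% in KD and 36.1% in EV, and 15.3% in the unassigned list. ZNF485 and ZNF891 had no KD peak, at 21.6% and 31.6% in EV. ZNF184 had 3.999% in KD and 13.6% in EV, and ZNF594 had 7.38% in KD and 20.6% in EV.

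Just under the criterion in EV stood ZNF286A, with 3.71% in KD and 9.49% in EV, ZNF879, with no KD peak and 9.04% in EV, and ZNF425, with 3.57% in KD and 8.65% in EV.

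The 8 genes with more cover in KD had small shares. ZNF316 had the highest of them in KD, 7.81%, with 7.70% in EV from 1 peak in each list at the same place. ZNF322 had 5.98% in KD and 1.60% in EV, from peaks that did not overlap. ZNF391 had 5.21% in KD and no EV peak, and 10.6% in the unassigned list. ZNF732 had 3.05% in KD, no EV peak and 9.52% in the unassigned list. ZNF777, ZNF697 and ZNF892 had 2.18%, 1.44% and 1.04% in KD and no EV peak, and the last of the 8, ZNF804B, had 0.0575% in KD.

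Of the 256 genes, 96 fell into 18 clusters, defined as at least 3 members on a chromosome with neighbours at most 250 kb apart. Members in clusters were covered to 1.36% in KD and 7.48% in EV, and the 160 outside clusters to 0.375% in KD and 1.40% in EV. In clusters 2 genes met the 10% criterion in KD (2.08%) and 20 in EV (20.8%). Outside them 2 did in KD (1.25%) and 6 in EV (3.75%, interval 1.39 to 7.98). Among all protein-coding genes 1.55% met it in KD and 2.75% in EV, so the genes outside clusters were near the background. The covered length was smaller in KD in 14 clusters and larger in 1, on chromosome 2, where KD had 0.530% and EV no peak. The other 3 had no KD and no EV peak in a member. The 5 clusters with the most EV cover held 33 genes, 8.43% of the summed gene length, 35.4% of the KD bases and 47.1% of the EV bases. These 5 were taken for their EV cover. The choice thus favours a larger share of the EV bases and the low KD/EV ratios given for them below.

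**Figure D1:**
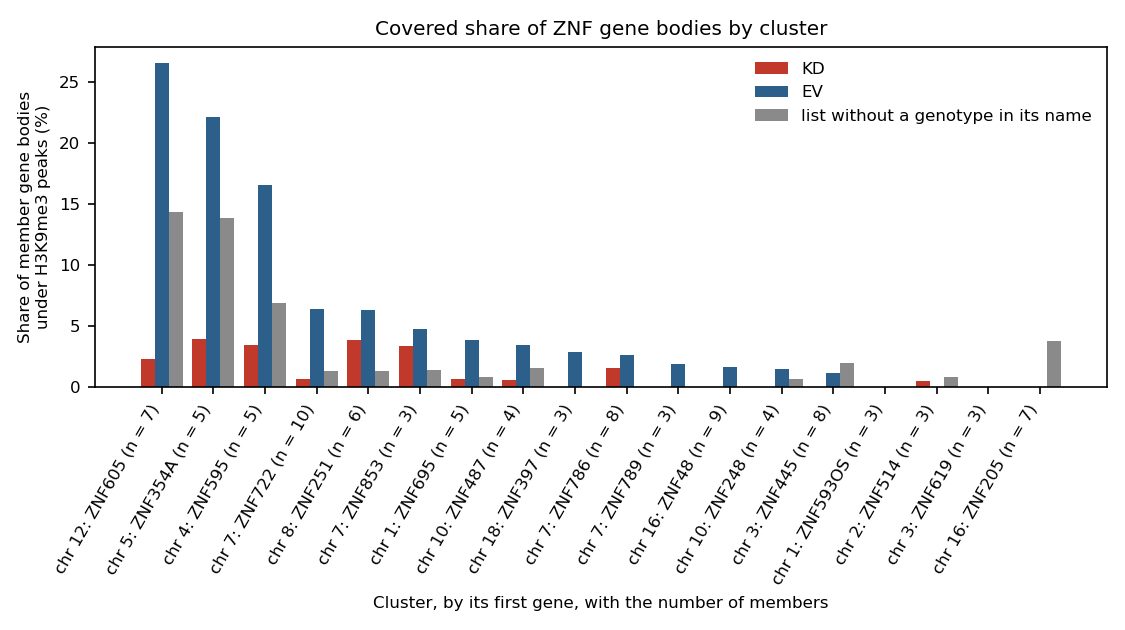
Share of the merged ZNF gene bodies under H3K9me3 peaks (vertical axis, %) in each of the 18 clusters, with KD, EV and the unassigned list as bars from left to right. The clusters on chromosomes 12, 5 and 4 stand highest in EV, at 26.5%, 22.1% and 16.5%, where KD has 2.29%, 3.97% and 3.49%.

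The cluster near the end of chromosome 12 (chr12:132918306-133214832) had 7 members, ZNF605, ZNF26, ZNF84, ZNF140, ZNF891, ZNF10 and ZNF268. All 7 reached 10% in EV and 1, ZNF605, reached it in KD. Its gene bodies were covered to 2.29% in KD and 26.5% in EV, a ratio of 0.0863, and to 14.3% in the unassigned list. ZNF10, also known as KOX1, whose KRAB domain is widely used as a repressor fused to Cas9, had no KD peak, 13.3% in EV and 13.3% in the unassigned list. ZNF140, a KRAB repressor gene, had 2.06% in KD and 26.8% in EV. ZNF26 and ZNF84 had no KD peak, 10.8% and 11.4% in EV, and 22.04% and 20.6% in the unassigned list. The unassigned list also marked this cluster, with 5 of the 7 members at 10%.

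In that cluster the mark was not limited to the gene bodies. Gene-free sequence between members was covered to 3.77% in KD and 21.4% in EV, and genes other than members to 3.09% in KD and 22.8% in EV. ZNF140 and ZNF891 overlap each other, so bases in their overlap count for both.

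The chromosome 4 cluster (chr4:53321-499156) had 5 members, covered to 3.49% in KD and 16.5% in EV, a ratio of 0.211. The members differed among themselves. ZNF721, ZNF141 and ZNF595 reached 10% in EV, while ZNF718 had no KD peak and 5.00% in EV, and ZNF732 had no EV peak. ZNF141 had 1.98% in KD and 18.98% in EV, and ZNF595 5.33% in KD and 13.8% in EV. Gene-free sequence of this cluster was covered to 3.09% in KD and 9.25% in EV.

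The chromosome 5 cluster (chr5:178711512-179083977), with ZNF354A, ZNF354B, ZNF454, ZNF879 and ZNF354C, was covered to 3.97% in KD and 22.1% in EV, a ratio of 0.1801. In it 4 of the 5 members reached 10% in EV and none did in KD. ZNF879 had no KD peak and 9.04% in EV, but 36.8% in the unassigned list, the highest share of any of the 256 genes there. ZNF454 had 3.80% in KD and 17.8% in EV, and 19.8% in the unassigned list. It overlaps GRM6, a glutamate receptor gene, so part of its cover is shared with that gene. Gene-free sequence was covered to 1.23% in KD and 6.15% in EV.

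**Figure D2:**
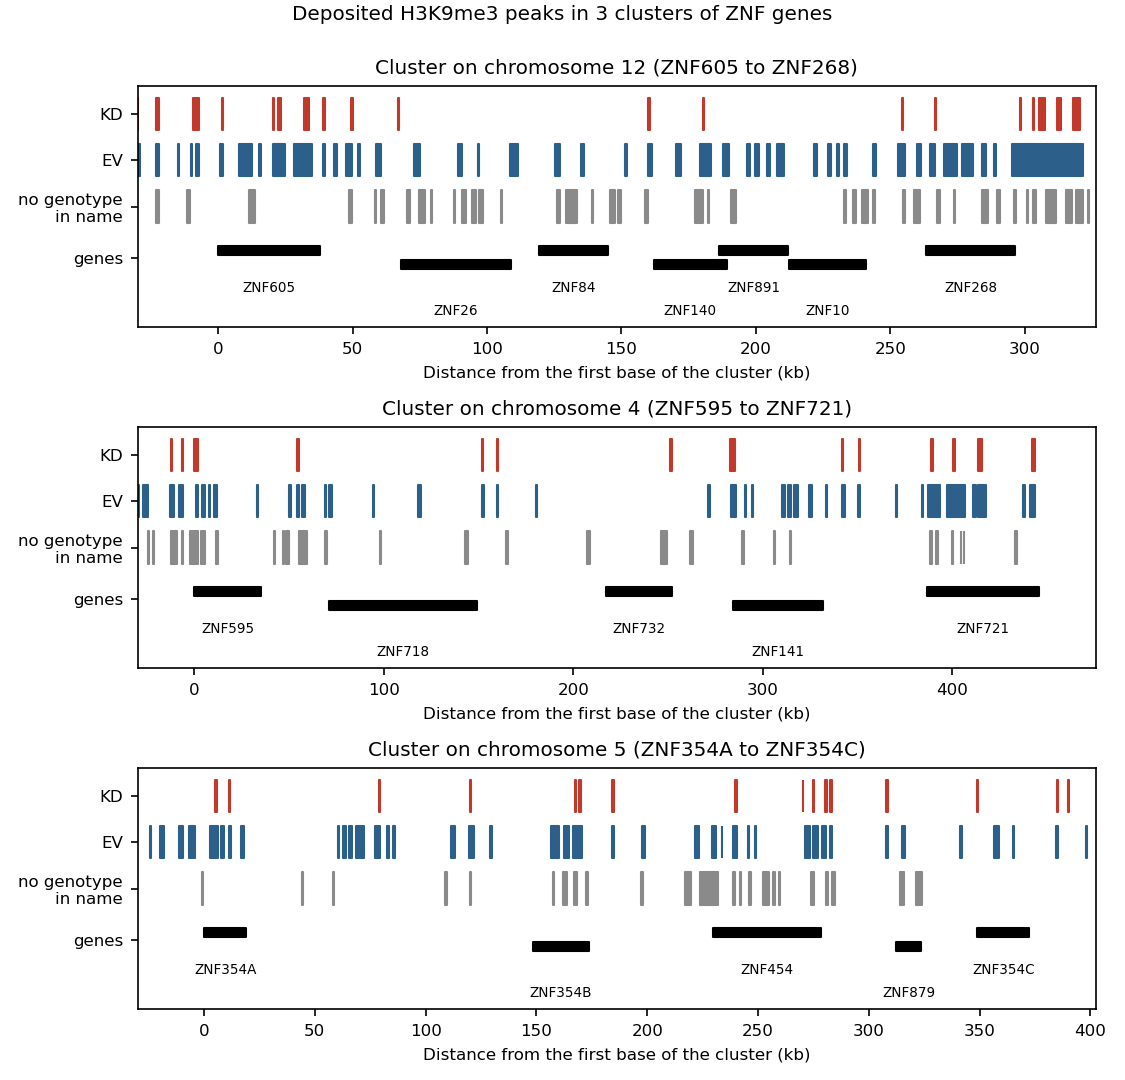
Deposited peaks of KD, EV and the unassigned list (rows, top to bottom) over the clusters on chromosomes 12, 4 and 5, drawn to scale against the distance from the first base of each cluster (kb), with member gene bodies in black. EV has wide blocks over ZNF605, over ZNF721 and beyond the end of ZNF268, where KD has several short peaks.

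The chromosome 7 cluster (chr7:63998849-64991036) was the largest, with 10 members from ZNF722 to ZNF117, and was covered to 0.714% in KD and 6.41% in EV. Its cover was spread thinly, with ZNF273 (1.73% in KD and 11.1% in EV) and ZNF736 (3.18% in KD and 10.7% in EV) the 2 at 10%. ZNF680, ZNF679 and ZNF722 had no KD peak and between 5.70% and 6.92% in EV, ZNF107 had 1.16% in KD and 5.77% in EV, and ZNF117 had no peak. ZNF727 and ZNF138 had no KD peak, with 3.41% and 4.499% in EV, and ZNF735 had none in KD or EV. The cluster of ZNF7 on chromosome 8 had 6 members, covered to 3.85% in KD and 6.35% in EV, a ratio of 0.607, most of it in ZNF7. Beside ZNF7, ZNF251 had 1.76% in KD and 4.25% in EV, ZNF34 had no KD peak and 5.49% in EV, and ZNF16, ZNF517 and ZNF250 had no peak in KD or EV.

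Not every cluster had a KD peak in its members. The 9 members on chromosome 16 from ZNF48 to ZNF629 had none and were covered to 1.67% in EV, against 0.684% for all protein-coding genes. The 7 from ZNF205 to ZNF597 had no KD or EV peak, with 3.79% in the unassigned list, against 0.172% for all protein-coding genes. No list had a peak in the 3 members from ZNF593OS to ZNF683 on chromosome 1 or the 3 from ZNF619 to ZNF621 on chromosome 3. Of the 30 genes of chromosome 16, 3 had a KD peak, beside 11.5% of all protein-coding genes, and 4 an EV peak, beside 24.5%. The KD count is near that background.

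By chromosome, 19 held such genes, and 18 of these had a smaller covered length in KD. The exception, chromosome 14, had no peak in its 3 genes in any list. The largest covered shares in EV were on chromosome 4, with 1.88% in KD and 8.92% in EV, on chromosome 12, with 0.752% in KD and 8.89% in EV, and on chromosome 1, with 1.93% in KD and 8.09% in EV, most of it in ZNF678. The 35 genes of chromosome 7 had 0.495% in KD and 2.36% in EV.

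Members within 1 Mb of a chromosome end were covered to 2.53% in KD and 14.5% in EV, and those at least 5 Mb away to 0.407% in KD and 1.67% in EV. Of the 27 genes within 1 Mb of an end, taking the last annotated gene or peak as the end, 2 reached 10% in KD (7.41%) and 11 in EV (40.7%). Of the 29 between 1 and 5 Mb, 0 reached it in KD and 5 in EV (17.2%), and of the 200 farther away 2 reached it in KD (1.00%) and 10 in EV (5.00%). Among other protein-coding genes the shares within 1 Mb were 2.096% in KD and 2.84% in EV, between 1 and 5 Mb 1.52% in KD and 3.04% in EV, and farther away 1.42% in KD and 2.05% in EV. Genes of 1 cluster share their position, so the 27 are not independent.

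The EV peaks in members were wider than EV peaks in other genes. A member was touched by 77 KD peaks, with a median width of 735 bp, and by 219 EV peaks, with a median width of 1184 bp. Their −log10 p values had a median of 4.202 in KD and 4.25 in EV. Peaks in other protein-coding genes had median widths of 729 bp in KD and 922.5 bp in EV. No KD peak in a member reached 5000 bp, while 10 EV peaks did, 5 of them in ZNF678, 2 in ZNF605, 2 in ZNF721 and the one that leaves ZNF268. These 10 were 4.57% of the EV peaks in members, against 0.813% wide peaks among the EV peaks of other genes. Of the 10, 9 were overlapped by KD, but 19.5% of their bases lay under KD peaks, against 47.3% for the 62 wide EV peaks of other genes. The peak that leaves ZNF268 counts here in full. Of its 26473 bp, 1338 bp lay inside a member and 7269 bp under KD peaks. The wide peaks of members and of other genes were not matched for −log10 p.

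Counted as peaks, the overlap of EV by KD had a share in members close to that in other genes. Of the 219 EV peaks in members, 60 (27.4%, interval 21.6 to 33.8) were overlapped by a KD peak. The share was 28.2% (interval 27.2 to 29.2) of 7622 EV peaks in other protein-coding genes, chromosome 19 ZNF genes included. Counted as bases, 17.2% of the EV peaks in members lay under KD peaks, against 24.2% in the other genes. Of the 77 KD peaks in members, 61 (79.2%, interval 68.5 to 87.6) were overlapped by EV. The unassigned list overlapped 19.6% (interval 14.6 to 25.5) of the EV peaks in members and 6.66% (interval 6.12 to 7.25) of those in other genes.

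Stronger EV peaks had a KD peak over them more often, in members as in other genes. Of EV peaks in members with a −log10 p under 3.5, 4.76% (interval 0.582 to 16.2) were found in KD, and of those in other genes 4.27%. Between 3.5 and 5, which held 110 of the 219, the shares were 17.3% (interval 10.7 to 25.7) and 15.01%. Between 5 and 8 they were 54.2% (interval 39.2 to 68.6) and 38.1% (interval 35.8 to 40.4), and between 8 and 15 they were 64.7% (interval 38.3 to 85.8) and 67.5%. At each strength but 5 to 8 the value of the other genes lay within the interval of the members. Between 5 and 8 the intervals of members and other genes overlapped narrowly.

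**Figure D3:**
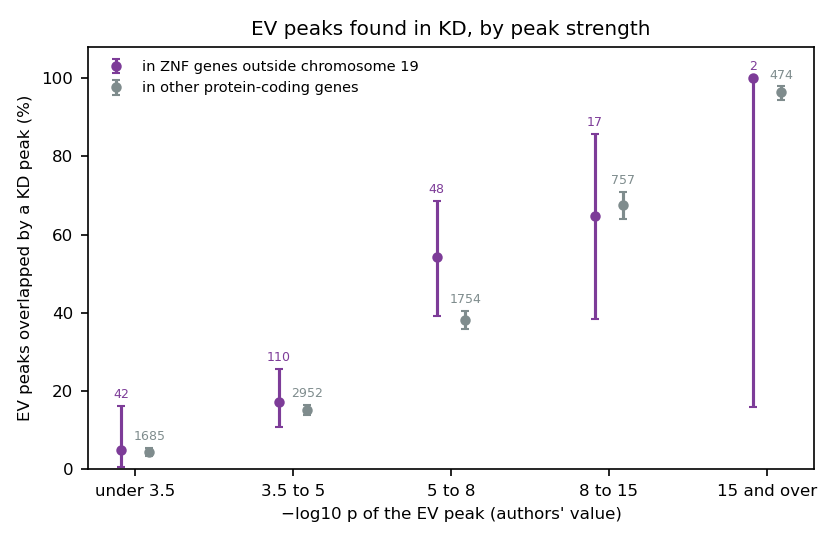
Share of EV peaks overlapped by at least 1 bp of a KD peak (vertical axis, %) against the −log10 p of the EV peak (authors' caller). Peaks lie in ZNF genes outside chromosome 19 or in other protein-coding genes. The latter are those of all chromosomes and include the chromosome 19 ZNF genes. Bars are exact 95% intervals and the small figures give the number of EV peaks, 219 and 7622 in all, of which 2 and 474 have a −log10 p of at least 15.

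The strongest peak in a member by −log10 p was short. The highest −log10 p was at ZNF337 on chromosome 20, 12.95 for the KD peak (chr20:25683919-25684605, 687 bp) and 31.7 for the EV peak (chr20:25683855-25684658, 804 bp). The next strongest EV peaks were in ZNF783, with 18.8, and in ZNF143, an activator that binds at many promoters, with 14.4. Each of these EV peaks was overlapped by a KD peak. In the unassigned list the highest value in a member was 5.49, at ZNF391.

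Summed over the genes, the covered share along the gene body differed by list, but its direction depended on the genes taken. The body of each of the 209 members with a strand in the RefSeq promoter table was divided into 10 equal bins. The first 3 bins from the 5′ end were covered to 0.584% in KD and 2.75% in EV, and the last 3 to 0.532% in KD and 2.65% in EV. The first bin alone had 0.541% in KD and 2.31% in EV, and the last bin 0.222% in KD and 2.18% in EV. The first 3 bins had 0.927% and the last 3 had 1.37% in the unassigned list. The 5 kb before the gene were covered to 0.799% in KD and 2.58% in EV, and the 5 kb after it to 0.309% in KD and 2.88% in EV. In 13707 other protein-coding genes the first 3 bins had 0.258% in KD and 0.774% in EV, and the last 3 bins 0.145% in KD and 0.488% in EV. Among the 209 members, the 23 at 10% in EV had 5.0999% in KD, 21.7% in EV and 8.54% in the unassigned list in the first 3 bins. Their last 3 bins had 3.62%, 23.3% and 7.199%. In EV and the unassigned list this order is the reverse of that in the 209, and in KD it is the same. The covered bases were held by few genes, so the summed bins rest largely on those. No exon annotation was used here, so cover over the exons that encode the zinc fingers was not measured.

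**Figure D4:**
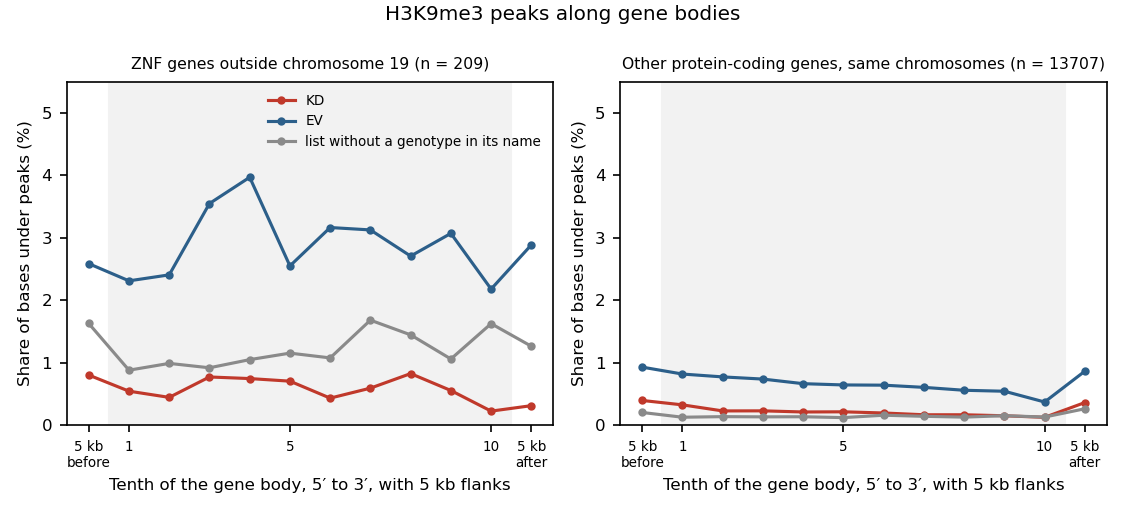
Share of bases under H3K9me3 peaks (vertical axis, %) in 10 equal bins of the gene body from 5′ to 3′ and in 5 kb on either side, for KD, EV and the unassigned list, in 209 ZNF genes (left) and 13707 other protein-coding genes (right). In the ZNF genes the KD line stays between 0.222% and 0.823% along the body and the EV line between 2.18% and 3.97%.

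Other zinc finger genes of the same chromosomes were counted by the same criterion, which 1.55% of all protein-coding genes met in KD and 2.75% in EV. Of 15 genes named ZFP with a number, 0 reached 10% in KD and 4 in EV, among them ZFP90 (2.30% in KD and 29.1% in EV) and ZFP69B (no KD peak and 26.8% in EV). Of 38 ZBTB genes, which carry a BTB domain in place of KRAB, none reached it in KD and 1 in EV (2.63%), a share near the background. None of 14 ZSCAN and 7 ZKSCAN genes reached it in KD or EV, which in so few genes is also near the background. In the unassigned list ZKSCAN7 reached it, at 10.56%, as did ZFP37, at 10.69%, and ZFP3, at 10.34%, where 0.774% of all protein-coding genes did.

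A list of 23 genes held machinery that places, reads or removes the mark, or works beside it. Peaks covered 0.149% of their merged bodies in KD and 0.806% in EV. All protein-coding genes had 0.201% in KD and 0.684% in EV. A KD peak touched 3 of the 23 (13.04%), SUV39H2, EHMT1 and TRIM24, and an EV peak touched 11 (47.8%). The shares over all protein-coding genes were 11.5% and 24.5%. The 23 are longer, with a median body of 55370 bp against 24115 bp, and a long gene has more room for a peak. The part of gene length in these shares was not tested. None reached 10% of the body in KD or EV, where 1.55% and 2.75% of all genes did, so a count of 0 among 23 is near the background. SUV39H2, an H3K9 methyltransferase gene, had 4.95% in KD and 5.19% in EV. TRIM28 and SETDB1 had no peak in any list, and CBX5, which encodes the reader HP1 alpha, had no KD peak and 3.601% in EV.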

How the data were processed

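H3K9me3 ChIP-seq libraries of HEK293T cells were described through 3 deposited lists of broad peaks without headers. Reads were aligned with Bowtie2 and peaks called with MACS2 on GRCh38, per the submitters' processing notes. The labels state no versions, calling options, controls or pooling. Each peak has a fold enrichment, a ratio over the caller's background, with a −log10 p and a −log10 q, all as the authors deposited them. The −log10 q of the list without a genotype is recorded as the authors' deposited score. These scores were used to describe or filter peaks. Where KD and EV scores stand side by side, they were not scaled to each other, and the depth behind them is unknown. The lists stop at a −log10 q of about 1.00 and hold no read counts, so no depth or precision from depth can be given. Lists were matched to KD and EV by the genotype in their names.

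Gene bodies came from a RefSeq table of GRCh38.p14, and strands from its promoter table, which matched 209 of the 256 members. Coordinates count from 1. Overlap (at least 1 bp) and covered bases were computed in Python 3.11.15 with numpy 2.4.6 and pandas 2.3.3, and intervals with scipy 1.17.1. Overlapping bodies were merged before summing, and peaks off chromosomes 1 to 22, X and Y were left out. The interval functions were tested on simulated peaks against bedtools 2.31.1.

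The members, gene lists and criterion were chosen with earlier results of these data known. Named genes were the 4 given with the selection, the top 15 in EV, the top 10 in KD and in the unassigned list, 6 each by KD minus EV and by KD/EV ratio, and the members of the 5 leading clusters. The text gives most of them, and adds others from its counts, the strongest peaks and the genes just under 10%, chosen after their values were seen. Alternatives changed peak filters, peak number, criterion, gene bodies and cluster distance. No protein sequences were used here, so counts of fingers and KRAB domains, which had been planned, were not run. KD peaks were not scaled to EV peaks, since no reads are given.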

Additional observations from a re-analysis of the deposited data

Results flagged for a closer look

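The unassigned list, which stands for no condition, covered 10% or more of the body of 14 of the 256 genes, and 0.998% of the merged bodies of all 256. It is given here because it holds signal in data outside the comparison of KD with EV. Of those 14 genes, 10 also reached 10% in EV (71.4% of the 14 and 38.5% of the 26 in EV), and the other 4 were ZNF197, ZNF263, ZNF391 and ZNF879. Which cells the list came from is not given in its name.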

How the results depend on the processing

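The percentage of EV peaks with a KD peak was held to its 95% interval, and ratios of covered length to 1.5 times the reported value. The KD/EV ratio of member counts was held to an interval of 0.039 to 0.4435. That interval takes the KD and EV counts as independent, although all 4 KD genes are among the 26 in EV. Of 31 alternatives, 25 stayed within these limits, 6 fell outside and none reversed a direction. No paired analysis was possible because each group has 1 library. The KD/EV ratio of members at 10% of the gene body was 0.154 (4 in KD and 26 in EV). It was 0.474 with any overlap (46 and 97), 0.289 at 5% (13 and 45) and 0.00 at 25% (0 and 10). With a −log10 q of at least 2 the counts were 1 and 15. With EV limited to its strongest peaks, as many as KD holds, they were 4 and 11, the ratio of covered length 0.459 and the EV peaks found in KD 48.4%. There the ratio of covered length of the other protein-coding genes was 0.560, and 8 of the 11 members had a KD share below 0.5 of the EV share, against 40.3% of the other genes. This last count was chosen after the data were seen, and under the other filters it was 14 of 15 and 22 of 23. EV peaks found in KD were 20.6% with a −log10 q of at least 2, and 13.2% where KD had to cover at least 50% of the EV peak. Other cluster distances (variants tighter and looser than 250 kb) kept each of the 5 ratios within 1.5 times. In the clusters of ZNF605, ZNF721 and ZNF7 they selected the same members, so those ratios could not change. The looser distance also left the cluster of ZNF354B as it was. These alternatives count among the 25 that stayed within the limits. The cause of these shifts was not tested.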

Other observations

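A total of 16 of the 256 genes had a peak in the unassigned list and in neither KD nor EV, a pattern shown by 2.04% of all protein-coding genes. The 16 include ZNF263, with 12.7% of its body covered, and ZNF197, with 10.5%. ZNF197 overlaps the read-through gene ZNF660-ZNF197, so its peaks count for both. The 5 leading clusters held 54.5% of the bases the unassigned list covered in the 256 genes. Its widest peak in a member, at chr5:178935521-178943394, measured 7874 bp and spanned the start of ZNF454, where EV covered 1745 of these bases and KD none.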
